A study of Mus musculus with 46 samples.

Results

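A group of genes near the floor of detection in AgRP neurons of fed mice was found at many times that level after a fast. The 8 genes described here, Lyve1, Svs2, Sphk1, Procr, Nlrc3, Fgf7, Cd68 and Ly96, were picked by name from 31854 genes in the count table, because their RNA was close to 0 in AgRP neurons of fed mice and far higher after a fast. All 8 were among the 13401 genes with enough reads to be tested, at a mean over 1 in units of counts scaled to library size (CPM). The fasted against fed difference in AgRP RNA therefore chose these genes and is given below as a description. Chromatin was described at the 128 ATAC-seq peaks, of 123721 in all, that lie within 100 kb of the start sites of the 8 genes.

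AgRP neurons of the arcuate nucleus (ARC) drive feeding and are active in hunger, and leptin, the hormone released by fat, restrains them. Most of the 8 genes are better known outside neurons. Lyve1 is a hyaluronan receptor of lymphatic vessels and tissue macrophages, Cd68 a lysosomal glycoprotein of macrophages, Procr the endothelial receptor for protein C, and Ly96 (MD-2) the partner with which Tlr4 senses lipopolysaccharide. Nlrc3 is a cytosolic NLR protein that restrains innate immune signals, and Sphk1 the kinase that makes sphingosine-1-phosphate. Fgf7 is a secreted growth factor that acts through a splice form of Fgfr2, and Svs2 is a secreted seminal vesicle protein of the copulatory plug.

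NuTRAP mice carry a GFP-tagged ribosomal subunit, L10a, and a tagged nuclear membrane protein behind a stop that Cre removes, and AgRP-IRES-Cre or POMC-IRES-Cre set the cell type. Mice were male C57BL/6J, and those of the AgRP RNA and all ATAC-seq samples were 6 to 11 weeks old. The age of the mice in the POMC samples was not given. Fed mice ate ad libitum and received PBS, fasted mice went 18 to 20 hours without food and received PBS, and leptin-treated mice were fasted in the same way and received leptin at 5 mg/kg, all 3 hours before death. RNA came from translating ribosomes pulled down with GFP (TRAP), for AgRP neurons from 3 fed, 4 fasted and 4 leptin-treated samples of 4 pooled ARCs each, and for POMC neurons from 2 samples per state. ATAC-seq came from sorted GFP-positive AgRP nuclei of 4 pooled mice per sample, 2 samples per state, and from AgRP-positive and AgRP-negative nuclei of mice labelled as fed and untreated, 2 samples each. RNA libraries held between 25581041 and 54511107 counts, and ATAC-seq libraries between 8263234 and 17190963. Since whole samples were measured, more RNA per neuron cannot be told apart from more RNA of another cell type caught in the pulldown. Where labels do not tie samples to separate animals, p-values measure only the spread between these samples.

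The genes lie on 5 chromosomes of mouse build GRCm38 (mm10). Lyve1 spans chr7:110850607-110863239 on the minus strand, Svs2 chr2:164235929-164238466 (minus), Procr chr2:155751117-155755471 (plus) and Fgf7 chr2:126034658-126091185 (plus). Sphk1 spans chr11:116530925-116536674 (plus), Cd68 chr11:69664213-69666153 (minus), Nlrc3 chr16:3945007-3976632 (minus) and Ly96 chr1:16688051-16709611 (plus). In the annotation Sphk1 shares 192 exon bases with Gm29292, a gene on the opposite strand, so reads there cannot be told apart without strand.

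The sequences below come from regions named in the chromatin results. They comprise the 250 bases before the RefSeq start (GRCm38.p6) of Fgf7 and Cd68, members whose start-site peak opened with fasting, printed on the gene strand. They also comprise the central 300 bases, on the plus strand of GRCm38, of the peak that opened most near Sphk1, Procr, Nlrc3, Fgf7 and Cd68. Capitals mark matches to the AP-1 site TGANTCA, the STAT site TTCNNNGAA or the E-box CACGTG, searched on both strands.
Fgf7 promoter, chr2:126034408-126034657, plus strand: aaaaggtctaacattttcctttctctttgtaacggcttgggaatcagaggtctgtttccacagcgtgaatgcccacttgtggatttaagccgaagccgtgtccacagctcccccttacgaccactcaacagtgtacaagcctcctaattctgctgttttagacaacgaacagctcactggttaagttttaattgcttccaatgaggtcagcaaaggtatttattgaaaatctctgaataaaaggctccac
Cd68 promoter, chr11:69666171-69666420, minus strand: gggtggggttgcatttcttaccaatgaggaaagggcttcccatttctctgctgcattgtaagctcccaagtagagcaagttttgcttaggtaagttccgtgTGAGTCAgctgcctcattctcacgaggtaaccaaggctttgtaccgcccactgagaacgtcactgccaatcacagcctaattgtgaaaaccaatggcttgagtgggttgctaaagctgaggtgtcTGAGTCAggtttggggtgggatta
Sphk1 peak, chr11:116500974-116501273, plus strand: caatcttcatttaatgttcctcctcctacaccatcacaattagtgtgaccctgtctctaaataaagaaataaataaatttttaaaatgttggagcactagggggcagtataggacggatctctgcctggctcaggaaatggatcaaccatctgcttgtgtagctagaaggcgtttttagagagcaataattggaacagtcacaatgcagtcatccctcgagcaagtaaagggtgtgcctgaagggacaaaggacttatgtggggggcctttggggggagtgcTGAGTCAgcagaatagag
Procr peak, chr2:155715342-155715641, plus strand: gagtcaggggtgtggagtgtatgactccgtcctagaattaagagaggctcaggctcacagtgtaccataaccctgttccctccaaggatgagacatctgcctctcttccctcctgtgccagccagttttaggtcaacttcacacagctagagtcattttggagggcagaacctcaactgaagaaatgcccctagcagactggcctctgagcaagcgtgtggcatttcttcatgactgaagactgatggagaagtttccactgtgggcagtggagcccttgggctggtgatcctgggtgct
Nlrc3 peak, chr16:3934842-3935141, plus strand: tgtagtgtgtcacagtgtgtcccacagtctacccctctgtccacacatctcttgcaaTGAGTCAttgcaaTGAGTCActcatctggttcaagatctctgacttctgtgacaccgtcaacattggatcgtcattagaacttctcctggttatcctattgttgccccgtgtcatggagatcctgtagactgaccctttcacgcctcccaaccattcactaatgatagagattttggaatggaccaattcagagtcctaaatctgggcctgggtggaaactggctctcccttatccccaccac
Fgf7 peak, chr2:125941175-125941474, plus strand: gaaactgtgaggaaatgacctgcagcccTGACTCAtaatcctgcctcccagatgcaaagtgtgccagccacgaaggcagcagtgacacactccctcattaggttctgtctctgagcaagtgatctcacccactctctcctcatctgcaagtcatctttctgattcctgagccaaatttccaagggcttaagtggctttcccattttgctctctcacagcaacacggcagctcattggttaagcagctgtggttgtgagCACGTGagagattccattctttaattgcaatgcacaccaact
Cd68 peak, chr11:69752748-69753047, plus strand: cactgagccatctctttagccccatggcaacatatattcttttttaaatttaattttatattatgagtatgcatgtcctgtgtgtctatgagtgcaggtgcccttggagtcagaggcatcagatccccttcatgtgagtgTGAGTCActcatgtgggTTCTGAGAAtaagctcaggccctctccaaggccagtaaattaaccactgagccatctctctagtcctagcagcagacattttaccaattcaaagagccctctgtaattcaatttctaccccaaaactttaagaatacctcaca

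In these letters the Cd68 promoter held 2 AP-1 matches, at -149 and -24 relative to the RefSeq start, and the Fgf7 promoter held no match to any of 7 motifs. The Nlrc3 peak held 2 AP-1 matches, the Fgf7 peak 1 with an E-box, and the Cd68 peak 1 beside a STAT match. The Sphk1 peak held 1 AP-1 match and the Procr peak none. RefSeq promoter entries were found for 6 of the 8 genes, with 5 entries for Sphk1, and those of Lyve1 and Ly96 were not used here.

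The largest differences belonged to Lyve1, Svs2 and Sphk1, which ranked 1, 2 and 3 of 13401 tested genes by their fasted against fed log2 fold change. The hyaluronan receptor Lyve1 was at 1.46, 1.13 and 0.376 CPM in fed libraries 1, 3 and 4, at 34.0, 21.9, 37.0 and 19.6 CPM in the 4 fasted libraries, and at 19.4, 18.5, 27.7 and 12.3 CPM with leptin. Every fasted and every leptin library was above every fed one, and fasted and leptin values overlapped. The fitted log2 fold change of fasted against fed was 4.78 ± 0.45 (SE), a 27.5-fold difference.

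The secreted proteins followed. Svs2 was at 1.29, 0.778 and 0.292 CPM in the fed libraries, at 23.1, 14.9, 14.2 and 5.85 CPM in the fasted ones and at 7.13, 3.83, 10.6 and 1.99 CPM with leptin, with a fasted against fed log2 fold change of 4.14 ± 0.70. Fasted and leptin values overlapped, and replicate 4 was the lowest in each state. Fgf7 was at 1.03, 0.702 and 0.209 CPM in the fed libraries, at 5.77, 5.10, 6.43 and 3.00 CPM in the fasted ones and at 0.802, 0.942, 1.07 and 0.410 CPM with leptin. Its fasted libraries stood above all others, and its leptin libraries overlapped the fed ones, a pattern that no other of the 8 genes had. The fasted against fed log2 fold change of Fgf7 was 2.91 ± 0.44.

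Of the enzyme and the cytosolic sensor, Sphk1 differed in having its highest values with leptin. It was at 0.486, 0.803 and 0.794 CPM in fed libraries, at 10.9, 9.52, 15.5 and 5.30 CPM in fasted ones and at 18.3, 24.7, 28.1 and 10.6 CPM with leptin. Only the leptin library of replicate 4 fell inside the fasted range. The NLR protein gene Nlrc3 was at 1.73, 1.08 and 1.09 CPM in fed libraries, at 13.3, 10.0, 14.6 and 8.78 CPM in fasted ones and at 9.81, 7.996, 14.2 and 5.87 CPM with leptin. Fasted and leptin values of Nlrc3 overlapped, and both were above all fed values. The fasted against fed log2 fold changes were 3.90 ± 0.46 for Sphk1 and 3.16 ± 0.34 for Nlrc3.

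The lysosomal gene and the remaining receptor genes followed. Cd68 was at 0.620, 0.251 and 0.501 CPM in fed libraries, at 4.32, 3.19, 4.84 and 3.58 CPM in fasted ones and at 2.96, 4.14, 4.85 and 2.65 CPM with leptin. Ly96, the Tlr4 partner, was at 0.405, 0.376 and 0.251 CPM in fed libraries, at 1.93, 1.25, 2.09 and 1.28 CPM in fasted ones and at 1.27, 1.47, 1.55 and 1.89 CPM with leptin. For both genes the fasted and leptin values were intermingled, and all of them were above the fed values. Procr was at 1.05, 0.978 and 0.460 CPM in fed libraries, at 6.13, 2.73, 4.05 and 1.94 CPM in fasted ones and at 3.36, 2.49, 7.55 and 1.51 CPM with leptin. Leptin libraries of Procr reached both above and below the fasted ones, and again all lay above the fed ones. The fasted against fed log2 fold changes were 3.13 ± 0.33 for Cd68, 2.21 ± 0.28 for Ly96 and 2.12 ± 0.59 for Procr.

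**Figure D1:**
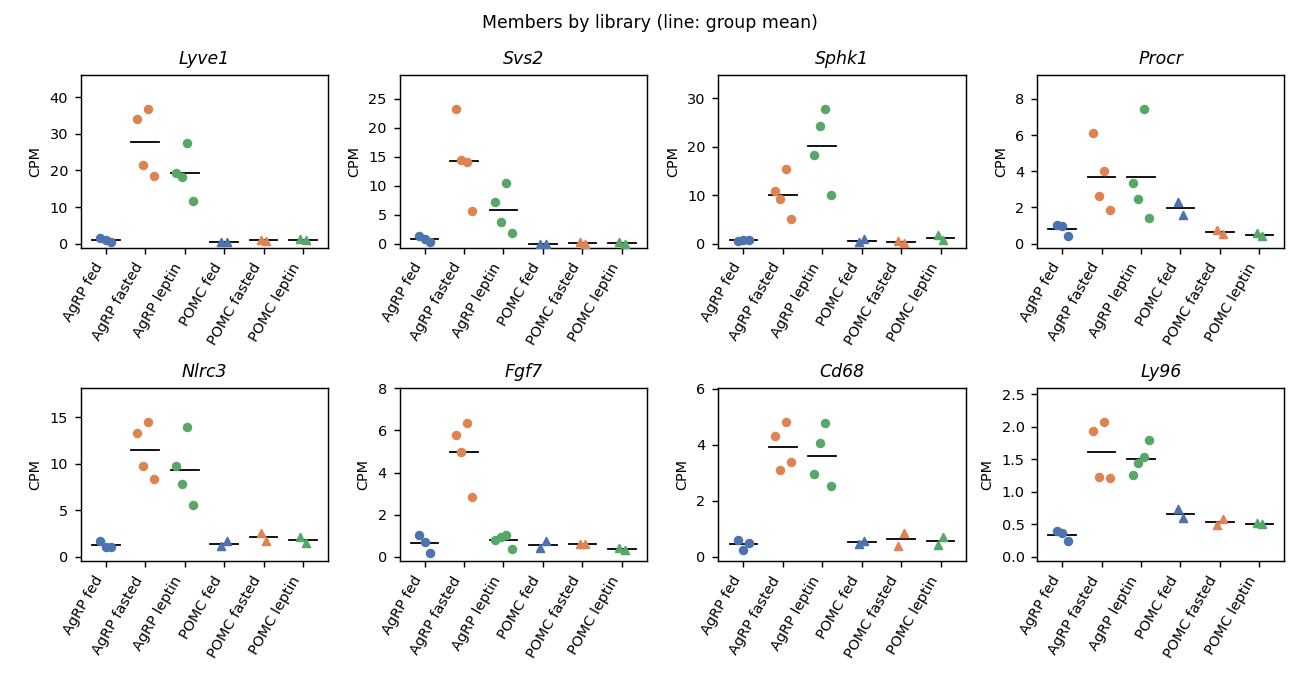
Each panel plots CPM on the y axis, scaled over all 17 RNA libraries, for 1 gene in fed, fasted and leptin-treated libraries of AgRP neurons (circles) and POMC neurons (triangles), with a line at each group mean. In AgRP neurons all fasted points lie above all fed points in the 8 panels, while all POMC points stay below 3 CPM.

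A low level in fed mice was shared by definition. The highest fed mean of the 8 genes was 1.30 CPM, for Nlrc3, and 337 tested genes had a fed mean at or below it, of which 47 were called higher in fasting. Calls were made by edgeR's quasi-likelihood test and required both an FDR (the Benjamini-Hochberg adjusted p over all genes tested) under 0.05 and a log2 fold change over 0.5 either way. By that rule 7 of the 8 genes were called higher, where 2.82% of all tested genes were. The exception was Procr, which was called once the replicate number entered the model as a block. The libraries of the 2 states did not overlap for any of the 8 genes, with fasted above fed throughout, as for 11.6% of all tested genes, where 6.69% had fasted below fed. The median log2 fold change was 3.15 over the 8 genes and 0.02 over all genes. These counts restate the choice of the genes, and 7 of the 8 had a fed mean under 1 CPM, so that they passed the filter through the fasted and leptin libraries.

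Levels were compared between genes as CPM per kilobase of the gene length in the count table. That length differs from the exon bases of the annotation, with 1881 against 1021 for Ly96 and 4114 against 7069 for Nlrc3. The order of the genes therefore depends on the length used. In fed mice the 8 genes lay between 0.178 (Sphk1) and 0.476 CPM per kb (Procr), all far below the 7.50 CPM per kb of the median tested gene. In fasted mice the order ran from Lyve1 at 10.8 ± 3.32 CPM per kb (SD, n = 4) and Svs2 at 7.80 ± 3.79, past Cd68, Nlrc3, Sphk1, Procr and Fgf7, to Ly96 at 0.872 ± 0.231. The median tested gene was at 7.71 in the same libraries, so only Lyve1 and Svs2 reached it. Each gene overlapped its next neighbour in that order. Agrp itself, the neuropeptide that names these neurons, was at 278 CPM per kb in fed, 974 in fasted and 899 in leptin-treated mice.

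Marker lists of other cell types were summed in the same libraries. The summed level of 7 AgRP neuron markers was 1927 to 2708 CPM in fed libraries, 3104 to 6620 in fasted and 2328 to 6637 in leptin-treated ones, so fed and fasted sums did not overlap, and their part in the result was not tested. Agrp averaged 390 CPM in fed and 1365 CPM in fasted libraries, and Npy 611 and 1999 CPM, neither of them called. Of the 7 markers 1 was called lower with fasting and none higher, where 1.07% and 2.82% of all tested genes were. Marker lists this short would mostly hold no call at those shares, so the lack of calls below was not read as a result. The summed level of 17 microglia markers was 36.1 to 61.6 CPM in fed, 27.4 to 57.9 in fasted and 28.6 to 53.0 in leptin-treated libraries. None of the 10 microglia markers that could be tested was called, and their median log2 fold change with fasting was -0.59. For border macrophages the sums of 12 markers were 13.9 to 21.4, 10.3 to 20.7 and 12.7 to 23.4 CPM, with 3 tested, none called with fasting and 1 marker at 0 in all AgRP libraries. Endothelial (12 tested) and lymphatic endothelial markers (4 tested) had no call with fasting either, with lymphatic sums of 126 to 168, 130 to 160 and 145 to 182 CPM. No list of markers for pericytes, fibroblasts, astrocytes, oligodendrocytes, tanycytes or the pars tuberalis had a call with fasting, and 1 of 5 tested POMC neuron markers was called higher.

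**Figure D2:**
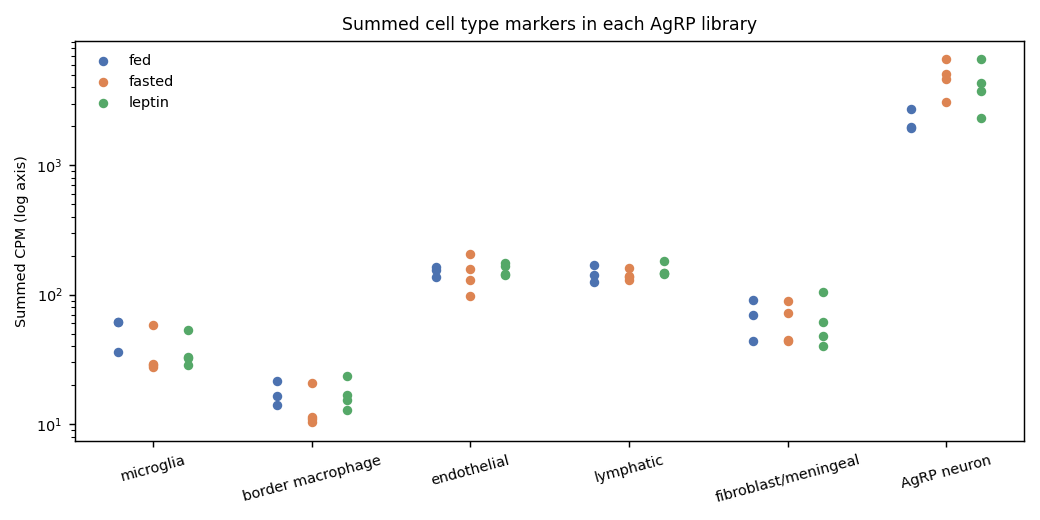
Points give the summed CPM (log axis) of each marker list in each AgRP RNA library, coloured by state, for 6 cell types on the x axis. The fasted sums of microglia (27.4 to 57.9 CPM), border macrophage, endothelial, lymphatic and fibroblast markers overlap the fed sums, and those of AgRP neuron markers (3104 to 6620 CPM) lie above the fed sums. For microglia and border macrophage markers only fasted library 4 lies inside the fed range.

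Replicate 4 stood apart in each state, most clearly in astrocyte RNA. Its astrocyte marker sum was 21690 to 28429 CPM, against 2959 to 4675 CPM in the other AgRP libraries, most of it Slc1a2. Fasted library 4 also had a microglia sum of 57.9 CPM, against 27.4 to 29.1 CPM in the other fasted libraries. Its border macrophage sum was 20.7 CPM, against 10.3 to 11.4 CPM. In both lists the other fasted libraries lay below every fed library. The endothelial sum of fasted library 4, 97.9 CPM, was the lowest of the fasted ones. Lyve1, Svs2, Procr and Fgf7 were lowest in the library numbered 4 in each state, and the part of these differences in the result was not tested. Without the 3 libraries numbered 4, 7 of the 8 genes were again called higher in fasting.

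Leptin-treated libraries were then compared with fasted ones. The fasted libraries are shared with the comparison that chose the genes, which were picked as high in them. A fall from fasted to leptin libraries is thus favoured in advance, and the values that follow are a description. Of the 8 genes 1 was called lower, where 0.634% of all tested genes were, and none was called higher, where 1.19% were. That gene was Fgf7, whose RNA fell by 2.62 ± 0.38 on the log2 scale (FDR 0.00413), from 5.07 ± 1.48 CPM (SD, n = 4) to 0.807 ± 0.287 CPM. Every leptin library was below every fasted one, as for 2.92% of all tested genes (3.24% had leptin above), and Fgf7 was called in each of 14 alternative analyses. Against fed mice Fgf7 with leptin differed by a log2 fold change of 0.29 ± 0.45.

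The other 7 genes had no call between leptin and fasted mice. Sphk1 had a log2 fold change of 0.99 ± 0.34 (FDR 0.270), Svs2 -1.29 ± 0.53 (FDR 0.437) and Lyve1 -0.53 ± 0.33 (FDR 0.862). Nlrc3, Cd68, Ly96 and Procr lay between -0.30 and 0.02, with 2 standard errors either way reaching from -0.83 to 0.23 for Nlrc3, from -0.61 to 0.37 for Cd68, from -0.52 to 0.34 for Ly96 and from -0.93 to 0.97 for Procr. Samples with the same replicate number deviated together in this RNA, and with the number as a block 4 of the 8 genes were called. These were Fgf7, Lyve1 (-0.52 ± 0.10, FDR 0.00776) and Svs2 (-1.31 ± 0.21, FDR 0.00165), which were lower with leptin, and Sphk1 (1.00 ± 0.12, FDR 0.000292), which was higher. Without the 3 libraries numbered 4, Sphk1 was called with Fgf7 (log2 fold change 0.98, FDR 0.0395).

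The comparison with fed mice uses the same low fed values that chose the genes, and is likewise a description. In leptin-treated mice 7 of the 8 genes were called higher than in fed mice, where 3.73% of all tested genes were, and all the genes but Fgf7 had leptin values above every fed value, as 12.3% of all tested genes did, with 8.98% below. Sphk1 had the largest log2 fold change of the 8, 4.89 ± 0.48, followed by Lyve1 at 4.25 ± 0.44. Cd68, Nlrc3 and Ly96 followed at 3.02, 2.86 and 2.12. The calls of Svs2 (2.85 ± 0.67, FDR 0.0265) and Procr (2.14 ± 0.59, FDR 0.0472) were lost when most single libraries were left out, in 5 and 6 of 7 cases. Svs2 was no longer called without fed library 1 (FDR 0.0578), 3 (0.0914) or 4 (0.100), or without leptin library 1 (0.0562) or 3 (0.0648). Procr was no longer called without fed library 1 (FDR 0.119), 3 (0.117) or 4 (0.164), or without leptin library 1 (0.0780), 2 (0.0611) or 3 (0.106).

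**Figure D3:**
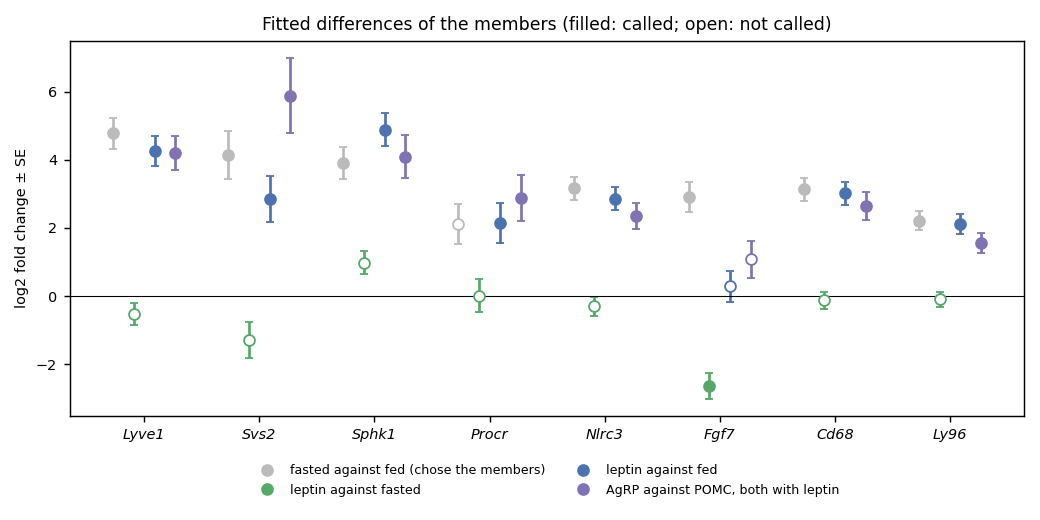
Points give the fitted log2 fold change (y axis) of each gene with its standard error in 4 comparisons, filled where the gene was called. Leptin against fasted (green), without a replicate block, is at -2.62 for Fgf7, the only filled green point. It is at -1.29 for Svs2, 0.99 for Sphk1 and -0.53 for Lyve1, and between -0.30 and 0.02 for Nlrc3, Cd68, Ly96 and Procr. The grey points belong to the comparison that chose the genes.

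POMC neurons, the arcuate neurons that restrain feeding, gave libraries that had no part in the choice of the genes. Library 2 of each POMC state had an astrocyte marker sum of 23709 to 27171 CPM, against 5882 to 6823 CPM in library 1. The part of this difference in the POMC values was not tested. Only Procr and Nlrc3 passed the filter of a mean over 1 CPM in the POMC libraries. The other 6 genes stayed between 0 and 1.65 CPM in all 6 POMC libraries, the highest being Sphk1 in leptin library 1. Svs2 had 0 and 1 counts in the fed, 12 and 0 in the fasted and 7 and 0 in the leptin libraries. Lyve1 was at 0.546 and 0.434 CPM in fed, 1.02 and 0.733 in fasted and 1.12 and 0.890 CPM in leptin-treated libraries, against at least 19.6 CPM in each fasted AgRP library.

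No gene was called in POMC neurons by edgeR, among the 8 or elsewhere, so the background is 0%, and 282 of 13412 genes (2.1%) had an unadjusted p under 0.05 for fasted against fed. DESeq2 called 0 of the 8 genes there as well. Procr was at 2.25 and 1.54 CPM in fed and 0.762 and 0.489 CPM in fasted POMC libraries, a log2 fold change of -1.58 ± 0.38 (unadjusted p = 0.00708, FDR 1.00). Its fasted values lay below its fed values, as did those of Ly96, while the fasted values of Lyve1 and Nlrc3 lay above their fed values. That is 2 of the 8 genes each way, where 12.8% of all tested POMC genes lay below and 12.7% above, and the difference from AgRP neurons was not tested. Nlrc3 was at 1.09 and 1.64 CPM in fed and 2.48 and 1.67 CPM in fasted POMC libraries (log2 fold change 0.61 ± 0.35, FDR 1.00). For leptin against fasted, 151 genes (1.13%) had an unadjusted p under 0.05, and Procr and Nlrc3 had log2 fold changes of -0.38 and -0.25. Leptin libraries did not overlap fasted ones for 1 of the 8 genes above (Sphk1; 8.8% of all genes) and 1 below (Fgf7; 8.5%).

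With leptin the 2 cell types were compared in libraries other than the fed and fasted ones that chose the genes. The genes were nonetheless chosen as high in AgRP neurons, and the 6 that failed the filter in POMC libraries passed it here through the AgRP libraries, so the counts that follow are a description. Of the 8 genes 7 were called higher in AgRP than in POMC neurons, where 6.41% of all tested genes were, and none lower, where 4.73% were. The same 7 did not overlap between the cell types, as for 16.1% of all genes with AgRP above and 16% with AgRP below. The median log2 fold change was 2.76 over the 8 genes and -0.04 over all genes. Lyve1 averaged 19.1 ± 6.42 CPM over the AgRP libraries (SD, n = 4) and 1.05 ± 0.164 CPM over the POMC ones (n = 2), a log2 fold change of 4.19 ± 0.50 (FDR 0.00011). Sphk1 was at 20.1 ± 7.73 against 1.18 ± 0.75 CPM (4.09 ± 0.62, FDR 0.00064), Nlrc3 at 9.30 ± 3.55 against 1.83 ± 0.415 CPM (2.35 ± 0.39, FDR 0.00114) and Cd68 at 3.58 ± 1.03 against 0.570 ± 0.190 CPM (2.64 ± 0.41, FDR 0.000713). All 4 of these genes kept their call in each of 10 alternative analyses.

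Svs2 and Ly96 were also called in that comparison, at log2 fold changes of 5.88 ± 1.11 (FDR 0.00235) and 1.55 ± 0.29 (FDR 0.00306). Ly96 fell below the filter, and so had no test, when any 1 of the 4 AgRP libraries was left out. The fold of Svs2 rests on 7 counts in the 2 POMC libraries, and its log2 value was 10.8 without POMC leptin library 1 and 4.81 without library 2. Procr (2.88 ± 0.68, FDR 0.0124) was no longer called without POMC leptin library 1 (3.12, FDR 0.0704) or 2 (2.66, FDR 0.121). Fgf7 averaged 0.794 ± 0.289 CPM over the AgRP and 0.381 ± 0.0771 CPM over the POMC libraries, with no call (1.08 ± 0.54, FDR 0.193).

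The genes varied among themselves. By the root mean square difference of their centred log2(CPM + 0.5) profiles over the 11 AgRP libraries, Nlrc3 and Cd68 were the most alike pair of the 8 (0.299) and Sphk1 and Fgf7 the least alike (1.69), which move apart in the leptin libraries. Among all tested genes, Nlrc3 was closest to Adgrg2 (0.208), Cd68 to Cdkn1a (0.248), Procr to Myh15 (0.226) and Ly96 to AK089155 (0.192). Fgf7 was closest to Dse (0.443), an enzyme of dermatan sulfate synthesis, and Sphk1 to Nts (0.624), the neuropeptide neurotensin. Lyve1 and Svs2 were both closest to Nlrc3, at 0.684 and 0.607. These values describe likeness over libraries that share states and replicate numbers.

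Partner genes of each pathway were set beside all tested genes, of which 2.82% were called higher and 1.07% lower with fasting. For leptin against fasted the shares were 1.19% and 0.634%, and 3.73% were higher for leptin against fed. At such shares lists of this length would hold few or no calls, so their counts are a description. Of 9 other hyaluronan genes tested 1 was called higher, Layn, another hyaluronan receptor, with a mean of 2.16 CPM in fed and 8.99 CPM in fasted libraries (log2 fold change 2.05 ± 0.46, FDR 0.0266). That call was lost without fasted library 1 (FDR 0.0640) or 3 (0.0683) and without fed library 1 (0.116), 3 (0.0778) or 4 (0.103). Cd44, the main hyaluronan receptor of most cells, averaged 16.3 CPM in fed and 11.4 CPM in fasted libraries, with no call. Of the 10 seminal vesicle genes counted, 6 were at 0 in all AgRP libraries, and none but Svs2 had enough reads to be tested. Of 19 other sphingosine phosphate genes none was called with fasting or between leptin and fasted, and 1 was called higher in leptin-treated than in fed mice. Sphk2, the second sphingosine kinase, averaged 99.6, 95.8 and 95.3 CPM in fed, fasted and leptin-treated libraries.

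Among the partners of Procr and Nlrc3, thrombomodulin (Thbd), which presents thrombin to protein C bound by the product of Procr, was at 5.38 ± 1.75 CPM in fed (n = 3), 6.32 ± 0.816 in fasted (n = 4) and 61.8 ± 28.4 CPM in leptin-treated libraries (n = 4). It rose by a log2 fold change of 3.29 ± 0.32 from fasted to leptin-treated mice (FDR 0.000411), with no overlap between 5.46 to 7.30 and 33.4 to 99.3 CPM. In all, 2 of 9 other protein C genes were called higher with leptin against fasted and 1 with fasting. The NLR gene Nlrc5, an activator of MHC class I genes, rose from 0.533 to 2.71 CPM with leptin against fasted (2.40 ± 0.27, FDR 0.000768), the only call among 4 other NLR genes tested, and none of the 4 was called with fasting.

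For the lipopolysaccharide receptor that Ly96 belongs to, none of 15 other genes was called with fasting, and 2 were called higher with leptin against fasted. The adaptor gene Myd88 rose from 5.28 ± 0.856 to 9.17 ± 0.699 CPM (n = 4 each, 0.80 ± 0.13, FDR 0.00700). The co-receptor gene Cd14 went from 0.340 to 2.44 CPM (2.82 ± 0.56, FDR 0.0240), a call lost without fasted library 1 (FDR 0.0909), 3 (0.0825) or 4 (0.0527). Tlr4, the receptor itself, stayed at means of 1.30, 1.10 and 1.33 CPM in fed, fasted and leptin-treated libraries without a call.

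Of 13 other FGF genes 1 was called lower with fasting, and none higher. This was the receptor gene Fgfr4, which fell by 1.69 ± 0.30 on the log2 scale (FDR 0.00827), from a mean of 3.92 CPM to 1.23 CPM. It was called higher with leptin against fasted (1.47 ± 0.28, FDR 0.0195), a call lost without fasted library 2 (FDR 0.0691) or 3 (0.0641) and without leptin library 3 (0.0506). Fgfr2, which encodes the receptor of Fgf7, averaged 15.8 CPM in fed and 11.1 CPM in fasted libraries without a call. Of 15 other LAMP and lysosome genes none was called with fasting or between leptin and fasted, with Lamp1 at means of 270 and 305 CPM in fed and fasted libraries.

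Genes near the 8 start sites were also counted. Of 28 tested genes that start within 100 kb, 1 was called higher with fasting and none lower, where 2.82% and 1.07% of all tested genes were. With 28 genes these counts cannot be told apart from those shares. The median log2 fold change of the 28 was 0.11, against 0.02 for all genes. The called gene was Edem2, which codes for a factor of endoplasmic reticulum degradation and starts upstream of Procr, at -21.64 kb. It rose from 18.2 ± 1.91 CPM (n = 3) to 37.8 ± 5.47 CPM (n = 4), a log2 fold change of 1.06 ± 0.14 (FDR 0.00235).

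Chromatin near the 8 genes was measured in other samples than the RNA. Of the 128 peaks within 100 kb 115 passed the mean of 1 CPM. Fasting opened 32 of them (27.8%), where 18.1% of all tested peaks opened, and closed 3 (2.61%), where 8.88% of all tested peaks closed. Both fasted libraries were above both fed ones at 55 of the 115 peaks and below at 24, compared with 33.7% and 31.8% of all tested peaks. The median log2 fold change was 0.26 near the 8 genes and -0.04 over all peaks. The 35 opened or closed peaks became 23 to 29 when a single library was left out, with 23 without fed library 1. Lyve1 had the most, with 10 of 20 tested peaks opened, followed by Procr with 6 of 21, Sphk1 with 4 of 21, and Nlrc3 (3 of 11), Fgf7 (3 of 8) and Cd68 (3 of 18). Svs2 had 2 of 6 and Ly96 1 of 10. By position, 6 of 36 promoter peaks, 5 of 17 exon peaks, 16 of 48 intron peaks and 5 of 14 intergenic peaks opened, and peaks of 1 gene share its neighbourhood. At the edge of the 100 kb window, the outermost peak inside had a log2 fold change between -0.93 (Ly96) and 1.76 (Sphk1), and the first peak outside one between -1.65 (Fgf7) and 0.93 (Procr).

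**Figure D4:**
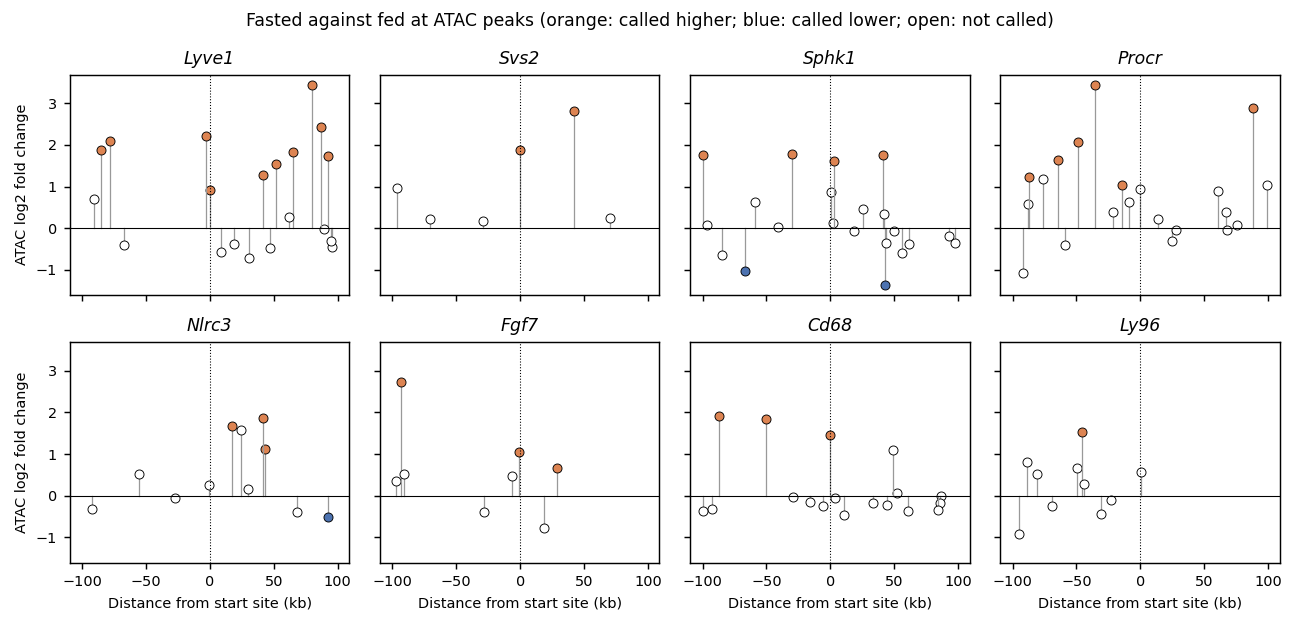
Each point is a tested ATAC-seq peak at its distance in kb from the start site (x axis, positive downstream) with its fasted against fed log2 fold change (y axis), orange where called higher, blue where called lower and open where not called. Lyve1 shows the most orange points, 10 of 20, up to 3.45, and blue points occur only in the panels of Sphk1 and Nlrc3.

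The peaks that opened most near Lyve1 and Procr were almost shut in fed mice. The Lyve1 peak lies 79.95 kb downstream, in an intron and with Ampd3 the nearest coding start, at chr7:110783080-110783493. It was at 1.13 and 0.293 CPM in the fed, 6.85 and 6.56 in the fasted and 4.93 and 4.81 CPM in the leptin libraries, a fasted against fed log2 fold change of 3.45 ± 0.51 (FDR 0.000109). The Procr peak printed above, at -35.63 kb, in an intron and with Edem2 the nearest coding start, was at 0.378 and 2.27 CPM in fed, 18.9 and 15.02 in fasted and 17.5 and 13.8 CPM in leptin libraries (3.44 ± 0.42, FDR 3e-05). At both peaks the leptin libraries were far above the fed ones and not called against the fasted ones.

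At the other printed peaks the leptin libraries were also above the fed ones. The Fgf7 peak at -93.33 kb, in an intron and nearest to the start of Cops2, was at 2.64 and 3.22 CPM in fed, 18.9 and 20.9 in fasted and 23.9 and 28.4 CPM in leptin libraries (2.73 ± 0.32, FDR 2.08e-05). The Nlrc3 peak at 41.64 kb, in an intron and nearest to the start of Cluap1, averaged 5.34 CPM in fed, 21.3 in fasted and 19.7 CPM in leptin libraries (1.87 ± 0.32, FDR 0.000342). The Cd68 peak at -86.74 kb averaged 2.41, 10.1 and 10.6 CPM (1.92 ± 0.41, FDR 0.00177), and the Sphk1 peak at -29.8 kb averaged 3.29, 12.7 and 11.6 CPM (1.77 ± 0.38, FDR 0.00187). In each, both fasted libraries lay above both fed libraries. The Svs2 peak at 41.97 kb, over an exon and nearest to the start of Wfdc15a, went from a mean of 1.80 to 12.2 CPM (2.83 ± 0.40, FDR 7.35e-05).

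Among the start sites themselves 4 of the 8 nearest peaks opened, where 1.22% of 13314 such peaks opened over all coding genes with a tested peak within 1 kb of the start. Of these 4 calls, that of Cd68 alone was kept whichever library was left out. The Cd68 start-site peak was at 3.53 and 3.80 CPM in fed, 8.53 and 11.9 in fasted and 12.96 and 8.09 CPM in leptin libraries (1.46 ± 0.37, FDR 0.00606), and its call held when any single library was left out. The Fgf7 start-site peak was at 21.3 and 14.5 CPM in fed, 42.7 and 29.0 in fasted and 19.9 and 19.8 CPM in leptin libraries (1.04 ± 0.24, FDR 0.00327), a call lost without fasted library 1 (FDR 0.0714) or fed library 2 (0.0554). The order of states at the Fgf7 start was that of its RNA, with leptin back at the fed level.

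The Lyve1 start-site peak was at 9.44 and 12.1 CPM in fed, 25.5 and 16.2 in fasted and 26.5 and 19.8 CPM in leptin libraries (0.91 ± 0.28, FDR 0.0198), a call lost without fasted library 1 (FDR 0.228) or fed library 1 (0.0911). The Svs2 start-site peak was at 0.881 and 1.10 CPM in fed, 5.69 and 1.89 in fasted and 1.48 and 1.30 CPM in leptin libraries. Its log2 fold change of 1.88 ± 0.56 (FDR 0.0167) rested on fasted library 1, without which it was 0.90 (FDR 0.315), and the call was also lost without fed library 1 (FDR 0.0725) or 2 (0.0877). The start-site peaks of Sphk1, Procr, Nlrc3 and Ly96 had log2 fold changes of 0.87, 0.95, 0.26 and 0.58 and were not called. Within Sphk1, 3.13 kb from its start, another peak was at 6.04 and 6.87 CPM in fed and 19.0 and 21.1 CPM in fasted libraries (1.62, FDR 0.000538). It was classed as a promoter peak by the start of another annotated gene, because that class counted the start of any gene.

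**Figure D5:**
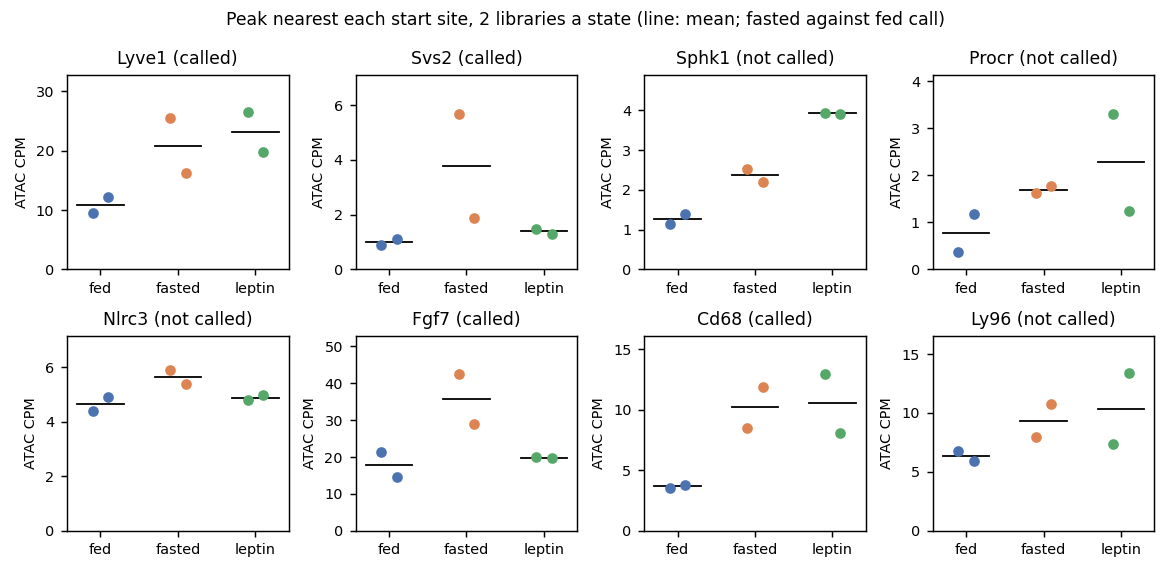
Each panel plots the CPM (y axis, from 0) of the ATAC-seq peak nearest the start site in the 2 libraries of each state, with a line at the mean, and the panel title gives the fasted against fed call. The Fgf7 peak is highest in the fasted libraries (42.7 and 29.0 CPM), and at Cd68 and Lyve1 the leptin libraries stay at the fasted level.

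Few of these peaks were called between leptin and fasted libraries, as was so for all tested peaks. With 2 libraries per state a lack of calls does not show a lack of change. Of the 115 tested peaks 1 was called higher with leptin against fasted (0.87%), where 2.41% of all tested peaks were, and 2 were called lower (1.74%), where 0.669% were. Leptin libraries did not overlap fasted ones at 11 peaks above and 35 below, against 21.9% and 21.4% of all tested peaks. The higher one, at -49.89 kb from Ly96 and between genes, was at 1.38 and 1.61 CPM in fed, 2.33 and 2.52 in fasted and 13.9 and 9.68 CPM in leptin libraries (2.26 ± 0.32, FDR 0.000549), a call that held when any single library was left out. The lower ones were the Fgf7 start (log2 fold change -0.85 ± 0.22, FDR 0.0391) and an intron peak 8.628 kb into Lyve1 (-1.23 ± 0.28, FDR 0.0144). The Fgf7 call was lost without fasted library 1 (FDR 0.600) or leptin library 1 (0.231) or 2 (0.345). The Lyve1 intron peak was at 32.2 and 26.5 CPM in fed, 24.3 and 14.5 in fasted and 9.29 and 7.36 CPM in leptin libraries, and its call was lost without fasted library 1 (FDR 0.380) or leptin library 1 (0.0965) or 2 (0.304). Its fasted against fed log2 fold change was -0.58 ± 0.25, with no call (FDR 0.0831).

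AgRP-positive and AgRP-negative nuclei were then compared at these loci. In sorted nuclei of fed mice 79 peaks within 100 kb were tested, of which 12 (15.2%) were higher in AgRP-positive nuclei, where 23.9% of all tested peaks were, and 10 (12.7%) lower, where 15.6% were. The libraries did not overlap at 22 peaks with AgRP-positive above and 30 with it below, against 36.9% and 33.9% of all tested peaks. Scaled by library size alone, the split was 13 higher and 7 lower, and the 22 calls became 8 without AgRP-negative library 2 and 14 without AgRP-positive library 1. The Lyve1 start peak was at 5.60 and 7.58 CPM in AgRP-positive and 0.493 and 0.474 CPM in AgRP-negative nuclei (log2 fold change 3.74 ± 0.58, FDR 1.59e-09). An Fgf7 intron peak at 28.57 kb was at 20.6 and 19.6 CPM against 1.23 and 1.18 CPM (4.04 ± 0.34, FDR 3.22e-29), and a second Fgf7 intron peak, at 5.057 kb, was at 0.0889 and 0.167 against 1.97 and 2.96 CPM (-4.13 ± 1.01, FDR 0.00025). These peaks were named for having the largest differences at Lyve1 and Fgf7, whose RNA was near 1 CPM in fed AgRP libraries. Of the 9 tested Fgf7 peaks 2 were called higher and 1 lower. Counts this small cannot be told apart from the shares of all tested peaks.

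Further calls lay at Lyve1 and Ly96. The Lyve1 intron peak at 8.525 kb (2.15 ± 0.29, FDR 4.36e-12) and a peak at 30.07 kb (2.95 ± 0.30, FDR 2.28e-20) were higher in AgRP-positive nuclei. In all, 3 of the 9 tested Lyve1 peaks were called higher and 2 lower. Log2 fold changes of the 9 ran from -2.26 to 3.74, with a median of -0.15. The Ly96 start peak was lower (-0.85 ± 0.33, FDR 0.0254), a call lost without any one of the 4 libraries (FDR 0.0619 to 0.191). Of the 32 peaks that opened with fasting, 13 overlapped a peak tested in sorted nuclei. Of these 13, 8 were higher in AgRP-positive nuclei (61.5%) and none lower, against 62.4% and 2.02% of the 5357 such peaks among all that opened, shares that lie close together.

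The AP-1 site, bound by Fos and Jun proteins, was the commonest of the 7 motifs searched in the central 300 bases. It was present in 15 of the 32 opened peaks near the 8 genes (46.9%) and in 31 of the 115 tested ones (27.0%), compared with 71.1% of all opened peaks and 32.2% of all tested peaks. Each of Cd68's 3 opened peaks held it, and neither of Svs2's 2 did. The STAT site was present in 5 of 32 (15.6%, against 11.4% of all opened peaks), the E-box in 3 (9.38% against 3.51%), the forkhead site TGTTTAC in 2 (6.25% against 4.91%) and the interferon-stimulated response element in 1 (3.12% against 3.48%). The cAMP site TGACGTCA and the glucocorticoid response element were in none of the 32, and in 0.54% and 0.119% of all opened peaks. In promoter windows from 250 bases before to 50 after the RefSeq start, AP-1 letters were in 7.81% of 32851 entries, among them Cd68, Procr (at -154) and 2 of 5 Sphk1 entries, and absent from Svs2, Fgf7 and Nlrc3. Matches of different motifs did not overlap in these peaks.

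IRF3, a transcription factor of innate immunity, had been mapped by CUT&RUN in AgRP nuclei carrying IRF3-2D, an always active form, in 1 sample, so the list has no replicate. The list was assigned to that sample as the only one made with SEACR. None of its 30387 peaks lay within 1 kb of the start of any of the 8 genes, where 21.3% of 21911 protein-coding genes have one. Within 100 kb 7 of 8 genes had a peak, as do 86.2% of protein-coding genes, the closest being 3.42 kb from the start of Cd68, and Svs2 had none. None of the 32 opened peaks overlapped an IRF3 peak, as against 1.69% of all 18512 opened peaks. Of the 115 tested peaks near the 8 genes 18 overlapped one (15.7%), against 9.88% of all tested peaks.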

How the data were processed

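Translating RNA of AgRP and POMC neurons and accessible chromatin of AgRP nuclei were analysed in samples grouped by the labels. The authors aligned RNA reads with HISAT2 to GRCm38 and counted them with featureCounts, on an annotation changed to limit overlapping transcripts, and deposited raw counts. ATAC-seq reads were aligned by the authors with Bowtie2 to mm10, peaks were called with MACS2 and merged, and the deposited values are raw counts per peak. The deposited IRF3 CUT&RUN list holds SEACR peaks with a total and a maximum signal, whose scaling is not given in the sources used here. The kit used for RNA does not mark strand.

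Genes and peaks with a mean over 1 CPM were fitted with edgeR 4.0.16 (TMM scaling, quasi-likelihood test, R 4.3.3), with all groups of a table in 1 model, and called at an FDR under 0.05 with an absolute log2 fold change over 0.5. The AgRP and POMC libraries were scaled together for comparisons between cell types. Alternatives were other scaling, no filter, DESeq2 1.42.0, a replicate block, other windows and leaving out each library. Libraries of the same replicate number deviated together in AgRP RNA (r from 0.565 to 0.838 over 10 pairs) and in POMC RNA (0.76 to 0.794), so the block is given where it changes a call. The fits were tested on simulated data.

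The 8 genes, the marker lists and the pathway lists were chosen with earlier results of these data known. Genes named beside the 8 were called list members, the main partners of each gene, the 2 genes most alike in profile and called neighbours, and not every gene this rule names is printed. For peaks, the start-site peak and the largest called differences were named. Intervals are 2 standard errors either way. Libraries of the whole arcuate nucleus and CTCF lists were not used here.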

Additional observations from a re-analysis of the deposited data

Results flagged for a closer look

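The order of fasted and fed libraries of Procr and Ly96 differed between the 2 cell types, though neither gene was called in POMC neurons, where Ly96 had too few reads to be tested, and Procr was not called in AgRP neurons. Every fasted AgRP library was above every fed one for both genes, while both fasted POMC libraries lay below both fed ones. The AgRP order restates the choice of the genes, so only the POMC order was free to vary. In POMC neurons the fasted mean minus the fed mean was -1.31 CPM for Procr and -0.129 CPM for Ly96, scaled over all RNA libraries. Such separation of POMC libraries was found in 12.8% of all tested genes. The difference between the cell types was not tested, and POMC neurons had 2 libraries per state.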

How the results depend on the processing

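Over single genes and peaks, 855 values under alternatives kept their direction and their side of the threshold, 149 lost a call, 7 gained one and 9 changed sign, and where a cause is not plain from the alternative the cause was not tested. None of the values that changed sign was called. For leptin against fasted, Procr was at -0.00216 with library size alone, -0.107 without fasted library 2, -0.182 without fasted library 4 and -0.595 without leptin library 3. Cd68 was at 0.003 without fasted library 3 and 0.0134 without leptin library 4, and Ly96 at 0.0645 without fasted library 3. Fgf7 for leptin against fed was at -0.0736 without fed library 4, and Nlrc3 in POMC neurons for leptin against fasted at 0.0663 without fasted library 1. Over all left-out libraries these values reached from -0.595 to 0.362 for Procr, from -0.286 to 0.0134 for Cd68, from -0.208 to 0.0645 for Ly96, from -0.0736 to 0.749 for Fgf7 and from -0.507 to 0.0663 for Nlrc3 in POMC neurons.

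The number of the 8 genes called for leptin against fasted was 1, but 4 with the replicate block and 2 without the libraries numbered 4, and it was 1 to 1 when single libraries were left out. The same ranges were 7 to 8 for fasted against fed, 5 to 7 for leptin against fed, 0 to 0 in POMC neurons and 6 to 6 for AgRP against POMC neurons, where Ly96 fell below the filter without any 1 AgRP library and Procr lost its call without either POMC library. For peaks, the ranges were 23 to 29 with fasting, 1 to 4 with leptin (1 without fasted library 1, leptin library 1 or leptin library 2, main count 3) and 8 to 21 in sorted nuclei. In windows of 50 kb and 200 kb, 20 and 55 peaks were called with fasting and 13 and 44 in sorted nuclei, counts that grow with the peaks tested, and 6 with leptin at 200 kb. ATAC-seq replicate numbers did not pair the samples (r from -0.00552 to 0.18), and with the replicate block 6 peaks were called with leptin. In POMC RNA the replicate block changed no call. Levels under 1 CPM rest on few counts, and groups of 2 libraries limit the POMC and chromatin comparisons.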
